A study of Arabidopsis thaliana with 10 samples.

Results

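A group of 7 genes of cytosine methylation was read out in seedlings of Arabidopsis thaliana: the DNA methyltransferase genes MET1 (AT5G49160), DRM2 (AT5G14620), CMT3 (AT1G69770) and CMT2 (AT4G19020), the chromatin remodeller gene DDM1 (AT5G66750), the histone methyltransferase gene SUVH4 (AT5G13960) and the demethylation gene ROS1 (AT2G36490). They were picked by identifier, 7 of the 73194 features of the RNA count table, and all 7 passed the count filter that left 19543 features for testing. Whole seedlings of ecotype Ler, grown untreated on MS medium and harvested at 5 days, were compared between a homozygous fve-8 mutant and the line E5-4, which is given as its wild type and is called WT here. The labels do not say what else E5-4 carries, and both genotypes share the ecotype, the age and the medium. Each genotype has 3 libraries of total RNA, whose counts sum to between 16161800 and 19599058. Nothing states that the numbered replicates came from separate cultures, so p-values measure the spread between these libraries, which may be technical.

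Plants methylate cytosine in the CG, CHG and CHH contexts, where H is any base but G. MET1 copies CG methylation onto the new strand after replication, CMT3 and CMT2 work from histone H3 methylated at lysine 9, a mark that SUVH4 lays down, and DRM2 is guided by small RNAs. DDM1 opens heterochromatin to the methyltransferases, while ROS1 and its relatives DME, DML2 and DML3 are DNA glycosylases that cut methylated cytosine out. FVE encodes a WD40-repeat protein of histone deacetylase complexes. The comparison was of the transcript levels of this machinery between the genotypes.

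The libraries were first checked against their labels. FVE (AT2G19520) averaged 9.21 ± 0.676 CPM (SD, n = 3) in WT against 5.88 ± 0.642 CPM in the mutant, where CPM is the count scaled to a common library size after TMM, edgeR's normalization on the bulk of features. Its log2 fold change of -0.65 ± 0.14 (SE) passed edgeR's quasi-likelihood test (adjusted p = 0.0184), but missed it when any 1 WT library or replicate 2 of fve-8 was left out, where the log2 fold change ran from -0.69 to -0.59 and the adjusted p from 0.0618 to 0.104. With library totals as the scaling FVE also missed it (-0.31, adjusted p = 0.178). The shoot markers RBCS1A, RBCS3B and LHCB1.1 summed to 12200 to 16700 CPM, and of these LHCB1.1 passed the test narrowly (-0.46 ± 0.13, edgeR adjusted p = 0.0496). That call was lost in 9 of 15 alternatives, among them library totals (-0.13, adjusted p = 0.433) and the omission of any single library other than fve-8 replicate 3 (adjusted p from 0.0794 to 0.220). Of the meristem and flower markers, STM averaged 1.89 CPM in WT and 1.85 in the mutant and PI 0.693 and 0.695 CPM, while WUS, AP3 and AG had at most 0.352 CPM on average in either genotype. Replicate 3 of fve-8 lay apart from the other fve-8 libraries, at 40.4 on the second principal component against -27.2 and -2.29. Plastid transcripts took 44.9% to 45.9% of counts in WT and 33.0% to 38.5% in fve-8. Whole seedlings are a mixture, so that fewer cells of a type and less RNA per cell cannot be told apart.

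None of the 7 genes was called different between the genotypes. With edgeR's quasi-likelihood test, 0 of 7 had an adjusted p under 0.05, against 11.7% of all tested features, and 0 of 7 had an unadjusted p under 0.05, against 28.0%. DESeq2, limma-voom and the likelihood-ratio test also called 0. In each of the 7 genes the values of the genotypes overlapped, whereas 33.0% of features showed no overlap, 15.6% with fve-8 higher and 17.4% with fve-8 lower. DESeq2 called 6.41% of all features higher and 4.07% lower, and edgeR without fve-8 replicate 3 called 12.3% higher and 10.0% lower and again none of the 7. Log2 fold changes ran from -0.30 to 0.19, with a median of -0.12 beside -0.01 over all features, and their median size of 0.19 compares with 0.22 for all features. The 95% intervals of the 7 fold changes lay between 0.583-fold and 1.45-fold under TMM scaling, so that a 2-fold change in either direction was outside each of them. The spread between libraries was also ordinary, with a median SD of log2 CPM of 0.14 in WT and 0.21 in fve-8 for these genes and of 0.13 and 0.20 for all features.

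**Figure D1:**
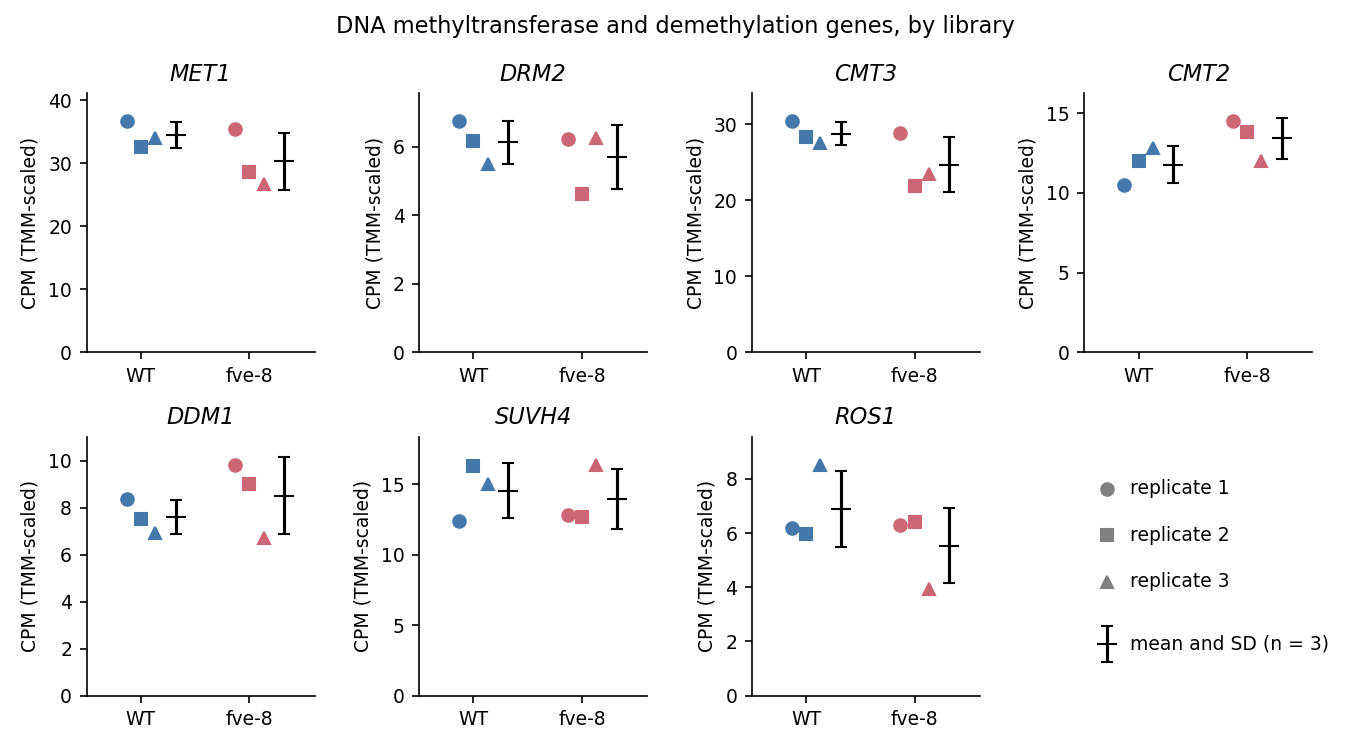
Level of each gene in CPM on the TMM-scaled library size (y axis, from 0) in WT (blue) and fve-8 (red), with 1 symbol per replicate number and the mean and SD over 3 libraries in black. The genotypes overlap in each of the 7 panels, and CMT2 and DDM1 are the 2 genes whose fve-8 mean is the higher one.

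MET1, which maintains CG methylation, was measured at 36.7, 32.6 and 34.1 CPM in WT replicates 1 to 3 and at 35.4, 28.7 and 26.8 CPM in fve-8. Replicates 2 and 3 of fve-8 lay below all WT libraries, and replicate 1 of fve-8 lay among them. The log2 fold change was -0.19 ± 0.12 (SE; edgeR adjusted p = 0.352), with a 95% interval of the fold from 0.729 to 1.06. DDM1, the remodeller on which methylation of heterochromatin depends, stood at 8.36, 7.51 and 6.94 CPM in WT and at 9.83, 9.01 and 6.69 CPM in fve-8. Here replicates 1 and 2 of fve-8 were above all WT libraries and replicate 3 was below them. Its log2 fold change was 0.17 ± 0.16 (edgeR adjusted p = 0.554). Leaving out that low library gave 0.32 (adjusted p = 0.104).

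CMT3, the CHG methyltransferase, had the smallest unadjusted p of the 7, 0.0979 with edgeR. It was at 30.4, 28.3 and 27.5 CPM in WT and at 28.8, 21.9 and 23.4 CPM in fve-8, so that replicate 1 of fve-8 again fell inside the WT range and the other fve-8 libraries lay under it. The log2 fold change was -0.22 ± 0.12 (edgeR adjusted p = 0.267), and leaving out fve-8 replicate 1 gave -0.34 (adjusted p = 0.0598), still not a call. SUVH4, which writes the histone mark that CMT3 reads, stood at 12.4, 16.3 and 15.0 CPM in WT and at 12.8, 12.7 and 16.4 CPM in fve-8. The highest and the lowest of these 6 values came from different genotypes with the rest mixed between them, and the log2 fold change was -0.06 ± 0.15 (edgeR adjusted p = 0.817). SUVH4 overlaps AT5G13970 in the RefSeq annotation, a locus with 103 to 123 counts in WT and 178 to 257 in fve-8, and the sources used here do not say whether reads were assigned by strand. The part of that overlap in the SUVH4 values was not tested.

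CMT2, which methylates CHH and CHG sites in long heterochromatic transposons, was measured at 10.5, 12.0 and 12.8 CPM in WT and at 14.5, 13.8 and 12.0 CPM in fve-8. Replicates 1 and 2 of fve-8 were above the highest WT library and replicate 3 was level with the middle one. The log2 fold change was 0.19 ± 0.13 (edgeR adjusted p = 0.362). When libraries were scaled by their totals alone, CMT2 became the 1 gene of the 7 that was called (0.53, adjusted p = 0.0289), a scaling under which the median feature stood at 0.33 and 28.6% of features were called higher. DRM2, the methyltransferase of the small RNA pathway, was at 6.75, 6.16 and 5.49 CPM in WT and at 6.24, 4.61 and 6.26 CPM in fve-8. Only fve-8 replicate 2 lay outside the WT range, and the log2 fold change was -0.12 ± 0.17 (edgeR adjusted p = 0.703).

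ROS1, the main DNA glycosylase of vegetative tissue, had the widest interval of the 7 on the log2 scale, from -0.78 to 0.18. It stood at 6.17, 5.97 and 8.52 CPM in WT and at 6.29, 6.39 and 3.93 CPM in fve-8, with 1 high library in WT, 1 low library in fve-8 and the other 4 close together. The log2 fold change was -0.30 ± 0.21 (SE; edgeR adjusted p = 0.397), and the interval of the fold reached from 0.583 to 1.13. Leaving out the high WT library gave -0.13 (adjusted p = 0.786), and leaving out the low fve-8 library gave -0.10 (adjusted p = 0.713). ROS1 held the smallest count of the 7 genes, 64 in fve-8 replicate 3, and MET1 the largest, 678 in replicate 2. For comparison, the authors' deposited table gives log2 fold changes of -0.29 for ROS1, -0.21 for CMT3, -0.17 for MET1 and 0.20 for CMT2, with adjusted p of 0.577, 0.495, 0.590 and 0.586 in the authors' deposited table.

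Direction depended on the scaling for 5 of the genes, none of which was called either way. MET1, DRM2, CMT3, SUVH4 and ROS1 had negative log2 fold changes with TMM, and with library totals they stood at 0.16, 0.22, 0.12, 0.26 and 0.05, each below the median of 0.33 over all features. DRM2 also stood at 0.02 without fve-8 replicate 2, and SUVH4 at 0.02 without WT replicate 2. CMT2 and DDM1 were positive in all 15 alternatives, from 0.11 to 0.53 and from 0.06 to 0.52.

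**Figure D2:**
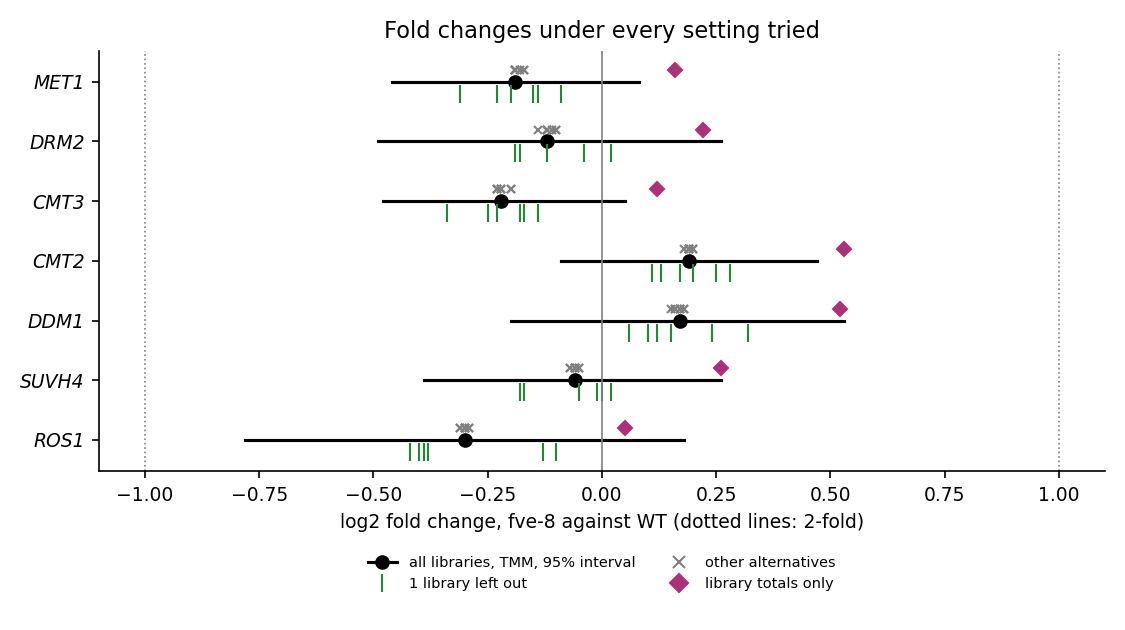
Log2 fold change of fve-8 against WT (x axis) for the 7 genes, with the 95% interval of edgeR's fit in black, each fit without 1 library in green, library totals as diamonds and the other alternatives as crosses. The black intervals stay inside the dotted 2-fold lines, and the diamond of CMT2, at 0.53, is the 1 value that was called.

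Ratios of counts within a library do not depend on how libraries are scaled. The ratio of CMT2 to CMT3 counts was 0.347, 0.424 and 0.468 in WT and 0.506, 0.629 and 0.510 in fve-8. All fve-8 libraries were above all WT libraries, a log2 difference of 0.41, and the exact permutation test, two-sided, gave p = 0.1. A design of 3 against 3 can give no smaller p, and the value was 0.3 after Benjamini-Hochberg adjustment over the 3 ratios computed. The ratio of ROS1 to MET1, demethylation against maintenance, was 0.168, 0.183 and 0.250 in WT and 0.178, 0.223 and 0.147 in fve-8, with the genotypes mixed (exact permutation p = 0.6, adjusted 0.6). The ratio of SUVH4 to CMT3 ran from 0.409 to 0.576 in WT and from 0.445 to 0.702 in fve-8 (exact permutation p = 0.5, adjusted 0.6).

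Among other genes of active demethylation, the remaining members of the ROS1 family rose in fve-8. Of 12 tested genes of this list 3 rose and 0 fell, beside 6.60% of all features called higher and 5.07% called lower, and the list median was 0.24 against -0.01 for all features. An unadjusted p under 0.05 with edgeR was found for 4 of the 12, beside 28.0% of all features. In 2 of the 12 all fve-8 values were above all WT values, beside 15.6% of all features. The 3 called were DML2, DME and DML3, all DNA glycosylase genes. DML2 (AT3G10010) went from 3.54, 2.95 and 4.6 CPM in WT to 8.88, 9.86 and 7.24 CPM in fve-8, with no overlap, a 2.36-fold rise (log2 fold change 1.24 ± 0.19, edgeR adjusted p = 0.00563). DML2 was called in all 15 alternatives, with log2 fold changes of 1.09 to 1.58. DME (AT5G04560), best known for demethylation in the female gametophyte, went from 21.7, 21.3 and 28.3 CPM to 40.5, 38.0 and 27.7 CPM, where fve-8 replicate 3 overlapped WT replicate 3 (0.58 ± 0.16, edgeR adjusted p = 0.0466). DML3 (AT4G34060) went from 1.80, 1.28 and 1.44 CPM to 2.75, 3.13 and 2.15 CPM, with no overlap (0.84 ± 0.24, edgeR adjusted p = 0.0473).

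Leaving out any single library other than fve-8 replicate 3 ended the calls of DME and DML3. Their adjusted p then ran from 0.057 to 0.197 for DME and from 0.074 to 0.189 for DML3, at log2 fold changes of 0.47 to 0.72 and 0.70 to 0.98. With limma-voom both also missed the threshold, at an adjusted p of 0.0537 for DME and 0.0563 for DML3, and DESeq2 called DME but not DML3 (adjusted p = 0.0837). The authors' deposited table gives adjusted p of 1.9e-05 for DML2, 0.0189 for DME and 0.105 for DML3. Of the uncalled genes with the highest levels, the DNA ligase gene LIG1 was at -0.07 ± 0.15, MBD9 at -0.17 ± 0.13 and the iron-sulphur assembly gene MET18 at -0.16 ± 0.11 (log2 fold change ± SE). ROS3 (AT5G58130), an RNA-binding factor that works with ROS1, was named after its values were seen: its mean went from 12.7 ± 0.938 to 18.6 ± 4.72 CPM (SD, n = 3; 0.56 ± 0.18, edgeR adjusted p = 0.0698). It was called in 5 of 15 alternatives, among them DESeq2 (adjusted p = 0.0461) and the likelihood-ratio test (adjusted p = 0.032). ROS3 overlaps other annotated loci with up to 153 counts, and the part of that overlap in its values was not tested.

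ROS1 took a smaller part of the counts of the 4 glycosylase genes, a comparison chosen after the values were seen and given without a test. ROS1 made up 18.6%, 18.9% and 19.9% of these counts in WT and 10.8%, 11.1% and 9.58% in fve-8. DML2 made up 10.7%, 9.37% and 10.7% in WT and 15.2%, 17.2% and 17.7% in fve-8. Neither share overlapped between the genotypes, whereas the share of DME was 65.3% to 67.6% in WT and 66.2% to 69.3% in fve-8. Because DME, DML2 and DML3 were grouped after they were called higher, a lower ROS1 share follows from the larger sum. It is no separate result, and ROS1 itself overlapped between the genotypes in CPM and was not called. These shares are free of the library scaling, but they are shares of reads, not of molecules, since the genes differ in length.

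**Figure D3:**
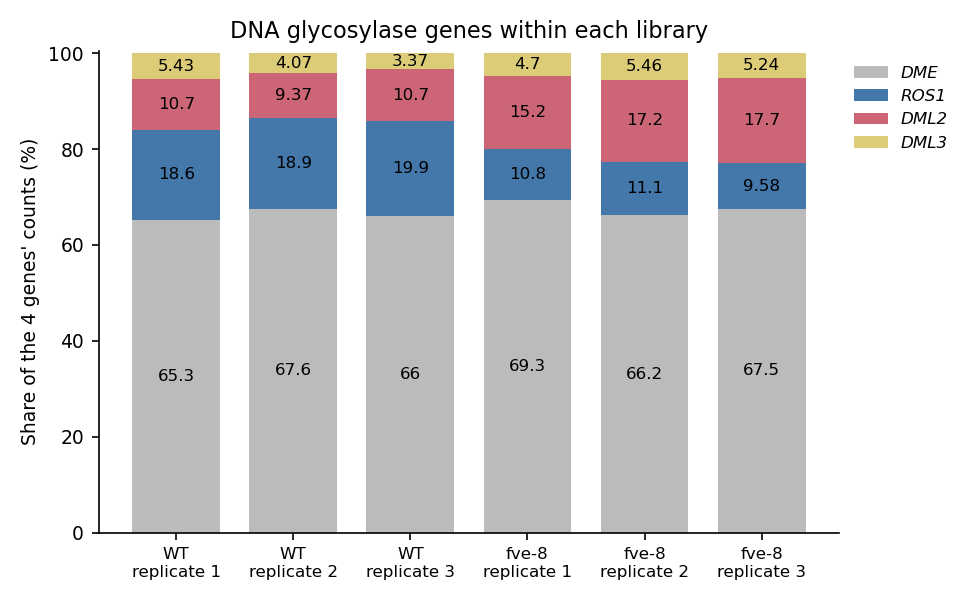
Share of the summed counts of DME, ROS1, DML2 and DML3 (y axis, percent) in each RNA library. The ROS1 band is 18.6% to 19.9% in WT and 9.58% to 11.1% in fve-8, and the DML2 band is 9.37% to 10.7% in WT and 15.2% to 17.7% in fve-8.

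Among other DNA methyltransferase genes, 0 of 3 tested were called by edgeR, beside 11.7% of all features. An unadjusted p under 0.05 was found for 0 of them, beside 28.0% of all features. DESeq2, limma-voom and the likelihood-ratio test called 0. DRM3, a relative of DRM2 without catalytic activity, was at 0.10 ± 0.12, DNMT2, a tRNA methyltransferase gene, at -0.26 ± 0.20, and DMT2, a copy of MET1, at 0.58 ± 0.35 (log2 fold change ± SE). DRM1, CMT1 and MEE57 did not pass the count filter. A list of methylation maintenance, methyl supply and related chromatin factors had 7 tested genes. Of these 1 rose and 1 fell, beside 6.60% of all features called higher and 5.07% called lower. The linker histone genes H1.1 and H1.2 were listed too, but were left out because the annotation does not pair their loci with these names. The linker histone gene HIS1-3 went from 9.40 ± 1.23 to 15.1 ± 1.69 CPM (SD, n = 3; 0.69 ± 0.14, edgeR adjusted p = 0.0146). SAHH1, whose product clears the by-product that inhibits methyltransferases, went from 594 ± 31.4 to 457 ± 11 CPM (-0.38 ± 0.10, edgeR adjusted p = 0.0416). With library totals SAHH1 stood at -0.04 (adjusted p = 0.8), below the median feature. Its call was also lost when any 1 WT library or replicate 2 of fve-8 was left out (adjusted p from 0.102 to 0.190). The call of HIS1-3 was lost when replicate 1 or 2 of WT, or replicate 2 of fve-8, was left out (adjusted p from 0.0554 to 0.0926). SAHH1 and SAHH2 are close copies, as are the IDN2 relatives FDM1 and FDM2 described further on, and how reads shared by such copies were counted is not stated, so their split is uncertain. VIM2, VIM4 and VIM5 did not pass the count filter. The uncalled genes with the highest levels were SAHH2 at -0.03 ± 0.12, the deacetylase gene HDA6 at 0.26 ± 0.11 and UBP26 at 0.12 ± 0.12.

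The list for histone H3 lysine 9 methylation, which also holds readers of methylated DNA and other chromatin factors, had no called gene. EdgeR called 0 of 14 tested, beside 11.7% of all features, and 0 had an unadjusted p under 0.05, beside 28.0%. DESeq2, limma-voom and the likelihood-ratio test also called 0, whereas library totals called 3 higher, with 28.6% of all features called higher under that scaling. The list median was 0.02, with the chromatin factor genes EDM2 at -0.03 ± 0.11, MOM1 at 0.06 ± 0.13 and JMJ14 at 0.02 ± 0.13. MBD5 had 0 counts in all 6 libraries.

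In the pathway that guides DRM2, 4 of 24 tested genes rose and 0 fell, beside 6.60% and 5.07% of all features, with a list median of -0.01. An unadjusted p under 0.05 with edgeR was found for 8 of the 24, beside 28.0% of all features. The genotypes did not overlap in 5 genes with fve-8 higher and 4 with fve-8 lower, beside 15.6% and 17.4%. Of the 4 called, 3 belong to the IDN2 family of double-stranded RNA-binding proteins, which act with DRM2 where RNA polymerase V transcribes. FDM1 (AT1G15910) went from 5.97 ± 0.622 to 12.8 ± 4.16 CPM (SD, n = 3; 1.11 ± 0.23, edgeR adjusted p = 0.0162). FDM2 (AT4G00380) went from 1.58 ± 0.143 to 4.33 ± 1.62 CPM (1.47 ± 0.30, edgeR adjusted p = 0.0148), beside 1.65 ± 0.31 for IDN2 (AT3G48670, edgeR adjusted p = 0.0123). CLSY3 (AT1G05490), of the CLASSY group of chromatin remodellers that brings RNA polymerase IV to its sites, was the fourth, from 2.40 ± 0.584 to 4.25 ± 0.909 CPM (0.83 ± 0.23, edgeR adjusted p = 0.0468).

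In FDM1, FDM2 and IDN2 the lowest fve-8 value came from replicate 3, and no genotypes overlapped. FDM1 and FDM2 lost their calls when any 1 WT library or replicate 2 of fve-8 was left out, with adjusted p of 0.0513 to 0.0941. IDN2 lost its call when replicate 1 or 2 of WT, or replicate 2 of fve-8, was left out, with adjusted p of 0.0543 to 0.0742. CLSY3 kept its call only when the library left out was fve-8 replicate 3, and otherwise had an adjusted p of 0.0654 to 0.191. Limma-voom did not call CLSY3 either (adjusted p = 0.0525). AGO4, the small RNA-binding effector, was at -0.16 ± 0.09, and the polymerase subunit genes NRPD2 and NRPE1 were at -0.17 ± 0.14 and 0.06 ± 0.15. SUVH2 and SUVH9, whose products bring RNA polymerase V to methylated DNA, were named after their values were seen: SUVH2 averaged 6.46 ± 0.0916 CPM against 4.72 ± 0.179 CPM in the mutant (-0.45 ± 0.13, edgeR adjusted p = 0.0557), and SUVH9 12.1 ± 0.443 against 9.24 ± 0.797 CPM (-0.39 ± 0.12, edgeR adjusted p = 0.0618). With library totals SUVH2 stood at -0.12 and SUVH9 at -0.05 (adjusted p = 0.604 and 0.835), while the likelihood-ratio test called both (adjusted p = 0.037 and 0.049). SUVH2 was also called without fve-8 replicate 3 (adjusted p = 0.0489), and SUVH9 without fve-8 replicate 1 (adjusted p = 0.0411). Other uncalled genes of the list went the other way, and these too were named after their values were seen. RDM4 was at 0.68 ± 0.20 (edgeR adjusted p = 0.0589) and CLSY1 at 0.57 ± 0.22 (edgeR adjusted p = 0.126).

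**Figure D4:**
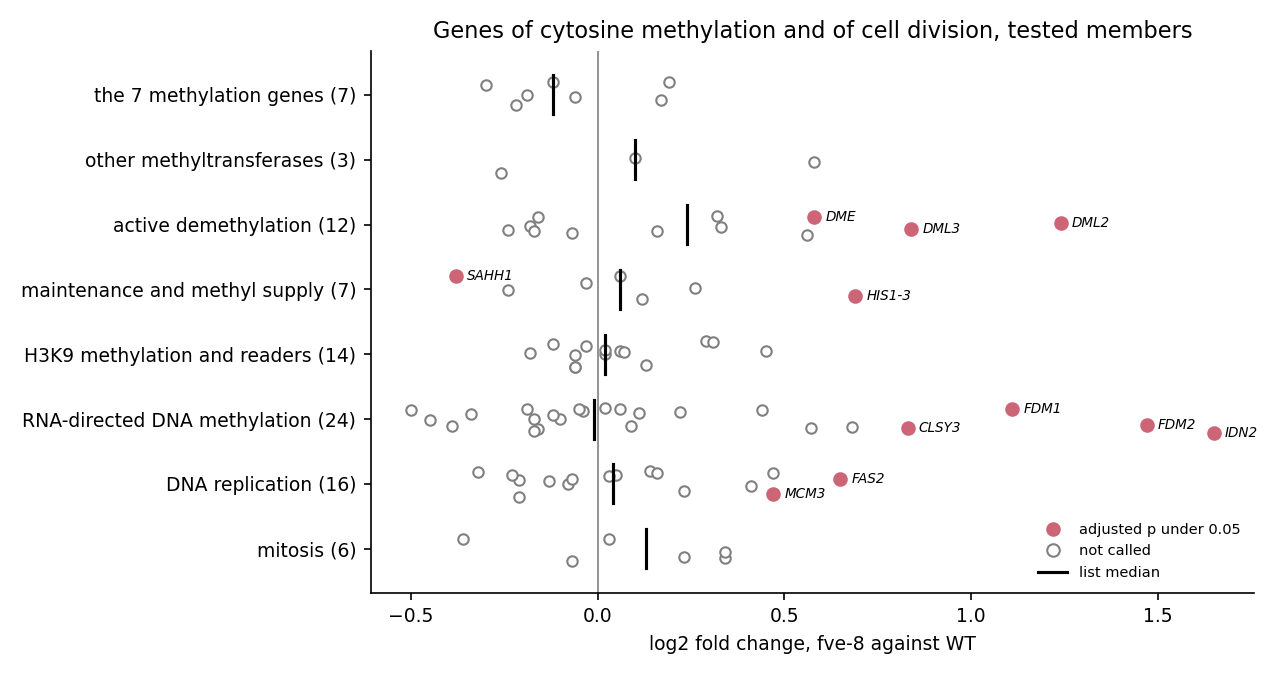
Log2 fold change of fve-8 against WT (x axis) for the tested genes of each list (y axis, number tested in brackets), with called genes filled and named and the list median as a black bar. None of the 7 methylation genes in the top row is called, and the filled points of the demethylation row are DME, DML3 and DML2.

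Genes whose expression DNA methylation is known to control gave few counts. Of 6 listed, 3 were tested and 1 rose, beside 6.60% of all features called higher. It was SDC, an F-box gene silenced through DRM2 and CMT3. SDC went from 0.194 ± 0.126 to 1.01 ± 0.421 CPM (SD, n = 3, edgeR adjusted p = 0.0245). That call was lost when any 1 WT library was left out (adjusted p from 0.0731 to 0.114), and SDC overlaps another counted locus in the annotation. EPF2 and RMG1, known from Arabidopsis ros1 mutants, were at 0.53 ± 0.34 and 0.23 ± 0.37 and were not called. FWA, QQS and SUP did not pass the count filter.

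MET1, CMT3 and DDM1 are known to be most active in dividing cells, so genes of DNA replication and mitosis were read beside them. Of 16 tested replication genes 2 rose and 0 fell, beside 6.60% and 5.07% of all features. The 2 were MCM3, a subunit of the replicative helicase (0.47 ± 0.13, edgeR adjusted p = 0.0495), and FAS2, a subunit of chromatin assembly factor 1 (0.65 ± 0.15, edgeR adjusted p = 0.0241). Both lost their calls when any 1 WT library or replicate 2 of fve-8 was left out, where the adjusted p was 0.133 to 0.182 for MCM3 and 0.0567 to 0.125 for FAS2. MCM3 also lost its call when replicate 1 of fve-8 was left out (adjusted p = 0.101), with DESeq2 (0.0591) and with limma-voom (0.0609). The ribonucleotide reductase genes TSO2 and RNR1 were at -0.32 ± 0.12 and -0.23 ± 0.10, and MCM2 was at 0.14 ± 0.16. The list summed to 234 to 244 CPM in WT and 200 to 272 CPM in fve-8, so the genotypes overlapped. EdgeR called 0 of 6 mitosis genes, beside 11.7% of all features, and 2 had an unadjusted p under 0.05, beside 28.0% of all features. DESeq2, limma-voom and the likelihood-ratio test called 0. Library totals called 1 mitosis gene higher, beside 28.6% of all features. The fit without fve-8 replicate 3 called 2 higher, beside 12.3% of all features. The fit without fve-8 replicate 1 called 1 higher and 1 lower, beside 1356 and 1023 of 19785 features. CDKB2;1 was at -0.36 ± 0.12, CYCD3;1 at 0.34 ± 0.10 and CYCB1;2 at 0.03 ± 0.23. CYCD3;1 overlaps AT4G34150, a locus with up to 1460 counts, and the part of that overlap in its values was not tested.

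Markers of other tissues differed between the same libraries. All 3 root markers were called lower by edgeR, beside 5.07% of all features. CASP1, COBL9 and TIP2;3 together summed to 55.4 to 59.1 CPM in WT and 29.7 to 33.6 CPM in fve-8. All 3 seed markers were also called lower, beside the same 5.07%, and CRA1, CRC and OLEO1 summed to 46.3 to 82.6 CPM and 7.14 to 14.3 CPM. With library totals CASP1 and COBL9 were not called (-0.37 and -0.34, adjusted p = 0.0634 and 0.188), and COBL9 was not called by DESeq2 (adjusted p = 0.0571). COBL9 kept its call only when the library left out was fve-8 replicate 3, with an adjusted p of 0.0526 to 0.139 otherwise, and CRC lost its call when replicate 2 of WT was left out (adjusted p = 0.064). None of these markers was at 0 in either genotype, and their part in the values of the glycosylase and IDN2 family genes was not tested.

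As a description of shared patterns, log2 CPM over the 6 libraries was compared between each of CMT3, MET1 and CMT2, the 3 with the lowest p, and all other tested features. Closest to CMT3 were HWI1, BBX29 and VOZ1 with Pearson r of 0.999, 0.998 and 0.997, and 1.66% of features exceeded 0.9. Closest to MET1 were ML1, AT3G02490 and MLO13, with r of 0.996, 0.996 and 0.990, and closest to CMT2 were emb2004, AT5G63710 and LEJ2, with r of 0.996, 0.993 and 0.991. None of these 9 genes was called between the genotypes, beside 11.7% of all features. They were chosen for their likeness to uncalled genes, so this is no separate result. Among the 7 genes, the pair with the highest r over the 6 libraries was MET1 and CMT3, at 0.918, and the pair with the lowest was DDM1 and SUVH4, at -0.843.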

How the data were processed

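Per the labels' protocols, RNA was taken up in Trizol and a stranded TruSeq kit for total RNA served for library preparation. Per the submitters' processing notes the tools were TopHat2, SAMtools, HTSeq and edgeR; the sources used here give no versions, no genome build and no rule for strand or multiply mapped reads. The authors deposited raw counts, whole numbers for each feature in each library. Their table also lists a log2 fold change and p-values with adjusted p-values, under the column names of a DESeq2 output per the file headers; the authors' deposited values were quoted but not used in any test.

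Counts of 3 against 3 RNA libraries were fitted over the whole table with genotype as the only term: edgeR 4.0.16 in R 4.3.3, filterByExpr, TMM, quasi-likelihood test, Benjamini-Hochberg adjustment, call at an adjusted p under 0.05. SEs were derived from the F statistics, intervals are 95%, and log2 CPM used a prior count of 2. Alternatives used DESeq2 1.42.0 and limma 3.58.1, among others. Code was tested on simulated data. Replicates differed by more than sampling noise. Chi-square per degree of freedom was 2.78 to 4.31 between WT libraries and 18.4 to 46.4 between fve-8 libraries. The lowest to highest counts of the 7 genes were 64 to 678, so counting error is part of each spread.

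The 7 genes and all lists were chosen with earlier results of these data known. In each list the called genes and up to 3 uncalled genes with the highest mean CPM are named, besides those said to be named later. Of 128 listed genes 11 were left out because the RefSeq TAIR10.1 table does not pair the locus with the listed name; names come from that table, which matched 28009 of 28496 nuclear identifiers. The 6 columns of authors' normalized values were not used. The small RNA table, with 8 columns of library values, was not used here, because its accessions are not paired with miRNA names.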

Additional observations from a re-analysis of the deposited data

How the results depend on the processing

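The 15 alternatives left MET1, DRM2, CMT3, DDM1, SUVH4 and ROS1 uncalled, and CMT2 was called with library totals alone (0.53), which made 1 of the 7 genes called higher. With library totals 5598 features (28.6%) were called higher and 192 (0.982%) lower, against 1290 (6.60%) and 990 (5.07%) with TMM. Of the 60 tested genes of the 5 methylation lists, library totals called 17 higher and 0 lower, against 8 and 1 with TMM. Leaving out 1 library gave 216 to 2444 features called higher and 128 to 1986 lower, and 1 to 12 methylation genes higher and 0 to 2 lower. The 12 came without fve-8 replicate 3, beside 12.3% of all features called higher. Limma-voom called 5 of the 60 methylation genes higher and 1 lower, beside 1095 and 986 of 19543 features. The likelihood-ratio test called 10 higher and 3 lower, beside 1785 and 1321 features. With the replicate block 768 of 19543 features were called higher and 461 lower, and 5 and 0 of the 60 methylation genes. That fit called none of the 7 genes (ROS1 -0.31, CMT2 0.19). No sign was seen that the replicate numbers pair the libraries, though so few libraries cannot show that they were unpaired. Deviations from the genotype means correlated at -0.01, -0.06 and -0.15 between same-numbered libraries. Between differently numbered libraries the correlations ran from -0.08 to 0.13. By construction, averaging differences within replicate numbers left the log2 differences of the count ratios unchanged. They were 0.41 for CMT2 to CMT3, -0.14 for ROS1 to MET1 and 0.16 for SUVH4 to CMT3. Without single libraries these ran from 0.29 to 0.51, -0.29 to 0.03 and 0.01 to 0.34. The lowest numbers of features called came without WT replicate 1 and the highest without fve-8 replicate 3. The cause of these changes was not tested. The planned fits of the small RNA table were not run, since its entries could not be matched to miRNAs. Genes with counts near the filter limit, such as SDC, rest on few reads.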

Other observations

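Each gene's share of the summed counts of the 7 genes gives a view free of library scaling. The share of CMT2 was 9.47%, 11% and 11.6% in WT and 12.8%, 14.2% and 12.5% in fve-8, with no overlap. The shares of the other 6 genes overlapped between the genotypes. Over all tested features 33.0% showed no overlap in CPM. The CMT2 share rests on the same CMT2 and CMT3 counts as their ratio, so it is no separate result. MET1 and CMT3 held 31.3% ± 1.57 and 26.1% ± 1.18 in WT and 29.6% ± 1.54 and 24.1% ± 1.39 in fve-8 (SD, n = 3). Together the 7 genes summed to 109 to 111 CPM in WT and to 114, 97.1 and 95.5 CPM in fve-8 replicates 1 to 3.

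The microRNA miR823 is known to cut CMT3 transcripts. Its locus MIR823 (AT3G13724) had 6 counts in all over the 6 RNA libraries, at most 3 in any of them, which gives no level to compare.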
